A study of Mus musculus with 48 samples.

Results

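Untreated moDC were set against untreated pDC, the baseline of a stimulation experiment before any ligand was given. The comparison rests on 2 of the 48 samples of the series, 1 library of each cell type, taken as the pair labelled untreated in a table of 32 libraries. Bone marrow of C57BL/6J female mice aged 6 to 10 weeks was grown with GM-CSF to give the cells the labels call moDC, or with Flt3L to give those they call pDC. Neither group was treated, and the number of mice, the days in culture and any sort of the cultured cells are not stated by the labels. The other 30 libraries of the table were 15 pairs of moDC and pDC that had received the same Toll-like receptor (TLR) ligand for the same time (LPS, the compound labelled PAM, CpG A or CpG B, for 1 to 6 h). They are used below as a description of how far the baseline difference extended. RNA was sequenced at the 3′ ends of polyadenylated transcripts.

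Dendritic cells (DC) sense microbes and activate T cells. Plasmacytoid DC sense nucleic acids inside endosomes and are known for secreting type I interferon, and they depend on the cytokine Flt3L, the E protein Tcf4 and the interferon regulatory factor Irf8. Monocyte-derived DC arise from monocytes under GM-CSF, a cytokine that drives phagocytic and inflammatory programmes, and the C/EBP factor Cebpb is known for its role in monocyte and macrophage genes. Cultures of marrow with GM-CSF are known to hold macrophage-like cells and granulocytes beside DC, and cultures with Flt3L to hold conventional DC beside pDC. In such bulk samples, fewer cells of a type and less RNA per cell cannot be told apart.

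With 1 library a group there was no replicate check and no test. Levels are CPM, read counts scaled to a common library total after TMM normalization, and each difference is the log2 ratio of moDC over pDC with the exact (Clopper-Pearson) 95% binomial interval of the ratio of counts. These intervals hold counting error alone. The labels name no molecular identifiers, so reads cannot be taken as separate molecules. A gene was called higher or lower where its whole interval lay beyond a fold of 2 and it reached 20 CPM in at least 1 library. Where a gene reached 20 CPM in 1 library alone, that minimum level set the direction of its difference, though not its size. The moDC library held 401755 counts and the pDC library 377460, so 1 count was worth 2.44 CPM in moDC and 2.09 CPM in pDC, and a count of 0 allows up to 7.32 CPM in moDC and 6.27 CPM in pDC (3 counts). Of 21637 genes, 7001 reached 20 CPM, and of these 449 (6.41%) were called higher in moDC and 217 (3.1%) lower. With column totals the split was 318 higher and 371 lower, and with the total of the measured genes it was 307 and 396, with the median of all measured genes at -0.33 and -0.35 against 0.04 here. Among the genes named below as called, column totals ended the calls of Tcfec, Creb5, Ets2, Itgax, Tlr2, Cd36, Il1b, Retnla, Oas1a, Mvd, Prss34, Traf1, Icam1 and Cxcl16. Pooled spread in edgeR ended those of Egr2, Ets2, Ccl5, Il1b, Oas1a, Mx1, Ccnd2, Traf1, Icam1 and Cxcl16. Pooled spread in DESeq2 ended more, among them the calls of Ccr7, Fscn1, Mrc1, Pdcd1lg2, Creb5, Myb, Kit and Col1a2. The higher genes had a median ratio of 7.01, and 160 of them differed by at least 10-fold, as did 66 of the lower genes. For scale, the same rule called 6 genes (0.0924%) between moDC with CpG A for 1 h and the untreated moDC library, and 8 (0.12%) in the same comparison of pDC. It called 530 genes in moDC after 6 h of LPS and 891 in pDC after 4 h of CpG B. The pDC library had more stray counts on genes foreign to DC: 1108 olfactory receptor genes summed to 249 CPM in moDC and 1200 CPM in pDC.

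Cebpb, Irf8 and the receptors for the culture cytokines differed between the libraries, while most lineage transcription factors and cytokine receptors were not called. Cebpb had 315 CPM in moDC and 35.5 CPM in pDC, a log2 ratio of 3.15 (interval 2.41 to 3.97). Irf8 went the other way, with 159 CPM in moDC and 1560 CPM in pDC and a log2 ratio of -3.30 (interval -3.69 to -2.93). Hairpins in another experiment of the series target Cebpb in moDC and Irf8 in pDC. At baseline each was about equally far apart in opposite directions on the log2 scale. When the spread was pooled from the other libraries by edgeR's quasi-likelihood fit, which assumes that the lone untreated libraries vary like the rest, the log2 fold change was 3.14 ± 0.495 (SE) for Cebpb and -3.30 ± 0.405 (SE) for Irf8. That spread comes from grouping libraries of the same ligand at early (1 and 2 h) or late (4 and 6 h) times. It thus holds change over time and does not measure variation between replicates of untreated cells.

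The other libraries place these levels. Cebpb ranged from 358 to 1060 CPM (median 633) in the 15 ligand-treated moDC libraries and from 29.6 to 81.1 CPM (median 63.8) in the 15 ligand-treated pDC libraries. The untreated moDC library thus lay below every treated moDC library, and the 16 moDC libraries did not overlap the 16 pDC libraries. Irf8 ranged from 183 to 678 CPM (median 238) in treated moDC and from 552 to 1550 CPM (median 1260) in treated pDC. Untreated moDC had the lowest and untreated pDC the highest of all 32 Irf8 levels, and the groups overlapped once ligands were included.

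Measured transcription factors of DC lineages numbered 59, Cebpb and Irf8 among them. Of these, 6 (10.2%) were called higher in moDC and 8 (13.6%) lower, against 6.41% and 3.1% of all measured genes, with a list median of -0.25. Column totals gave 3 higher and 8 lower. The higher set held Cebpe, a C/EBP factor of granulocyte maturation (53.7 CPM in moDC against 4.18 CPM in pDC), Egr2, an early growth response factor of macrophages (92.8 against 12.5 CPM), Creb5, Tcfec, a relative of the macrophage factor Mitf (56.2 against 8.36 CPM), and Ets2. The lower set held Id3, an inhibitor of E proteins, at 12.2 CPM in moDC and 564 CPM in pDC, with a log2 ratio of -5.53. Bcl11a, a zinc finger factor of pDC and lymphoid cells, had 4.88 CPM in moDC and 64.8 CPM in pDC. Spib, an ETS factor of pDC, had 56.2 CPM in moDC and 414 CPM in pDC. Tcf4, which defines the pDC lineage, had 9.77 CPM in moDC and 62.7 CPM in pDC, with 4 and 30 counts behind these levels. Mycl1 (now Mycl), a Myc relative of DC, had 0 counts in moDC and 48 in pDC, at least 13.7-fold lower in moDC with the floor of 3 counts.

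Factors common to several DC types differed less. Irf4, a factor of type 2 conventional DC and of monocyte-derived DC, had 178 CPM in moDC and 73.1 CPM in pDC (log2 ratio 1.29, interval 0.68 to 1.91) and missed the call. It was nevertheless above its pDC partner in all 15 treated pairs without overlap of the 16 libraries of each type. Id2, an inhibitor of E proteins that conventional DC need, had 354 CPM in moDC and 625 CPM in pDC. Its sign held in 5 of 15 treated pairs. Cebpa had 36.6 CPM in moDC and 98.2 CPM in pDC, and its sign held in 3 of 15 treated pairs.

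Of 29 measured growth factor and cytokine receptors 3 (10.3%) were called higher in moDC and 4 (13.8%) lower, against 6.41% and 3.1% of all measured genes. Csf2rb, the signalling chain of the GM-CSF receptor, had 1140 CPM in moDC and 213 CPM in pDC (log2 ratio 2.42, interval 2.11 to 2.75). Csf2ra, its ligand-binding chain, had 593 CPM in moDC and 132 CPM in pDC. Flt3, the receptor of Flt3L, had 1 count in moDC and 134 counts in pDC, that is 2.44 CPM and 280 CPM, with a ratio of 0.00872 (interval 0.000219 to 0.0494). Each culture was thus higher for the receptor of the cytokine it was grown in. Csf1r, the receptor of M-CSF, had 825 CPM in moDC and 433 CPM in pDC (log2 ratio 0.93, interval 0.68 to 1.19) and was not called.

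**Figure D1:**
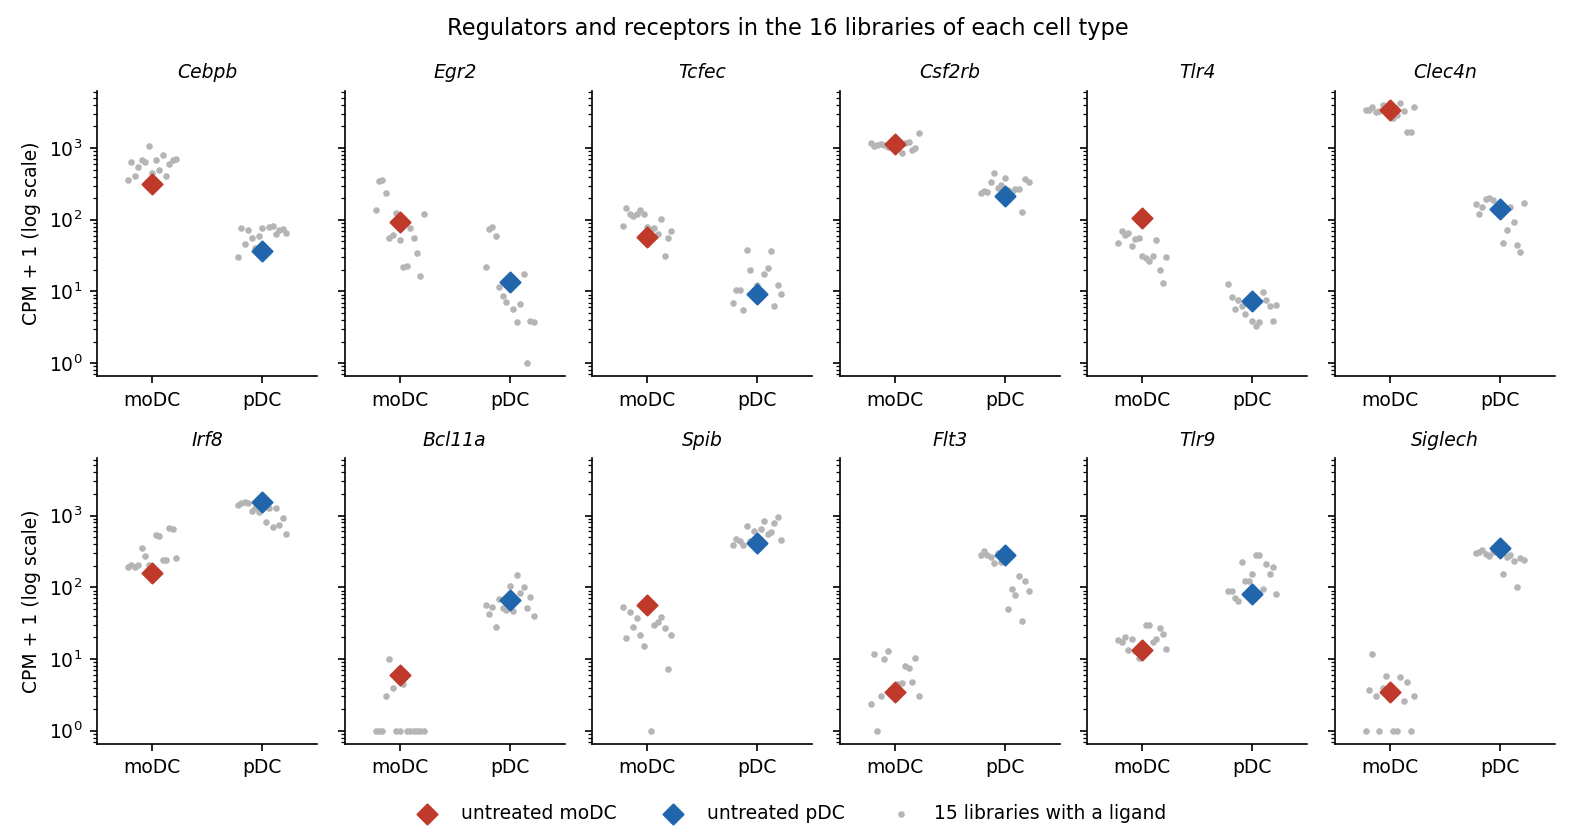
Levels of 12 regulators and receptors (CPM + 1, log axis) in the 16 moDC libraries (left of each panel) and the 16 pDC libraries (right). Diamonds are the untreated libraries and grey points the 15 libraries with a ligand; Cebpb lay at 315 CPM in untreated moDC and 35.5 CPM in untreated pDC, Irf8 at 159 CPM and 1560 CPM.

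The 15 largest differences toward moDC among called genes of at least 100 CPM were held by genes of varied roles. Mgl2, a galactose-binding lectin of macrophages and DC, led with 392 counts in moDC and 2 in pDC, a ratio of 229 (interval 63 to 1900). The gene 1600029D21Rik (now Plet1), an epithelial progenitor antigen also found on some DC, had 918 CPM in moDC and 6.27 CPM in pDC. Ccl17, a chemokine that draws CCR4-bearing T cells, had 5540 CPM in moDC and 43.9 CPM in pDC, a ratio of 126 with a narrow interval of 82.5 to 205. Coagulation factor F10 had 469 CPM in moDC and 4.18 CPM in pDC, and factor F7 had 155 counts in moDC and 0 in pDC, at least 60.4-fold higher. The eosinophil proteins Epx (491 CPM in moDC, 6.27 CPM in pDC) and Prg2 (1040 CPM in moDC, 14.6 CPM in pDC) stood among them, as did the chitinase-like Chi3l3 (now Chil3; 725 CPM in moDC, 10.4 CPM in pDC).

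The remaining 7 of the 15 largest were Gm5483 (now Cstdc4, a stefin-like gene), AA467197, the monoglyceride lipase Mgll, the platelet chemokine Ppbp, the uridine phosphorylase Upp1, the asialoglycoprotein receptor chain Asgr2 and haptoglobin, Hp. Their ratios lay between 61.1 (Hp) and 127 (Gm5483), and their pDC levels rested on 1 to 3 counts. All 15 genes were higher in moDC in all 15 treated pairs, with no overlap between the 16 moDC and the 16 pDC libraries. In the pair with a control hairpin described below, however, Ppbp had 3 counts in moDC and 16 in pDC. AA467197 overlaps the annotated gene Mir147 in the RefSeq gene table, and the stefin genes have near-identical copies, so reads of these could be shared between genes.

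The 15 largest differences toward pDC included several surface proteins. Siglech, a sialic acid lectin that marks mouse pDC, had 1 count in moDC and 166 counts in pDC, a ratio of 0.00704 (interval 0.000177 to 0.0398). Ly6d, a GPI-anchored antigen of lymphoid precursors and pDC, had 9.77 CPM in moDC and 794 CPM in pDC, and Ly6a, also known as Sca-1, had 14.6 CPM in moDC and 579 CPM in pDC. Cd7, a receptor of lymphoid cells, had 0 counts in moDC and 105 in pDC, at least 30-fold lower in moDC. Cox6a2, a subunit of cytochrome oxidase also known from muscle, had 2.44 CPM in moDC and 102 CPM in pDC, and the lectin-like receptor gene Klrd1 had 2.44 CPM in moDC and 180 CPM in pDC. The inhibitory receptor Btla, the calcium channel Itpr1, the transporter Slc46a3, the progenitor antigen Cd34 and the tetraspan-like genes Ms4a6c and Ms4a4c completed the set with Flt3, Id3 and Dmpk.

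Dmpk, a kinase known from muscle, had 0 counts in moDC and 179 counts (374 CPM) in pDC, at least 51.1-fold lower in moDC. It ranged from 0 to 19.1 CPM in treated moDC and from 7.02 to 314 CPM in treated pDC, so that its baseline pDC level was the highest of the 16 pDC libraries. Of these 15 genes, Dmpk, Itpr1, Slc46a3 and Cd34 overlapped between the 16 libraries of each type, and the other 11 did not. Cd34 kept its sign in 14 of 15 treated pairs and the other 14 genes in all 15.

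**Figure D2:**
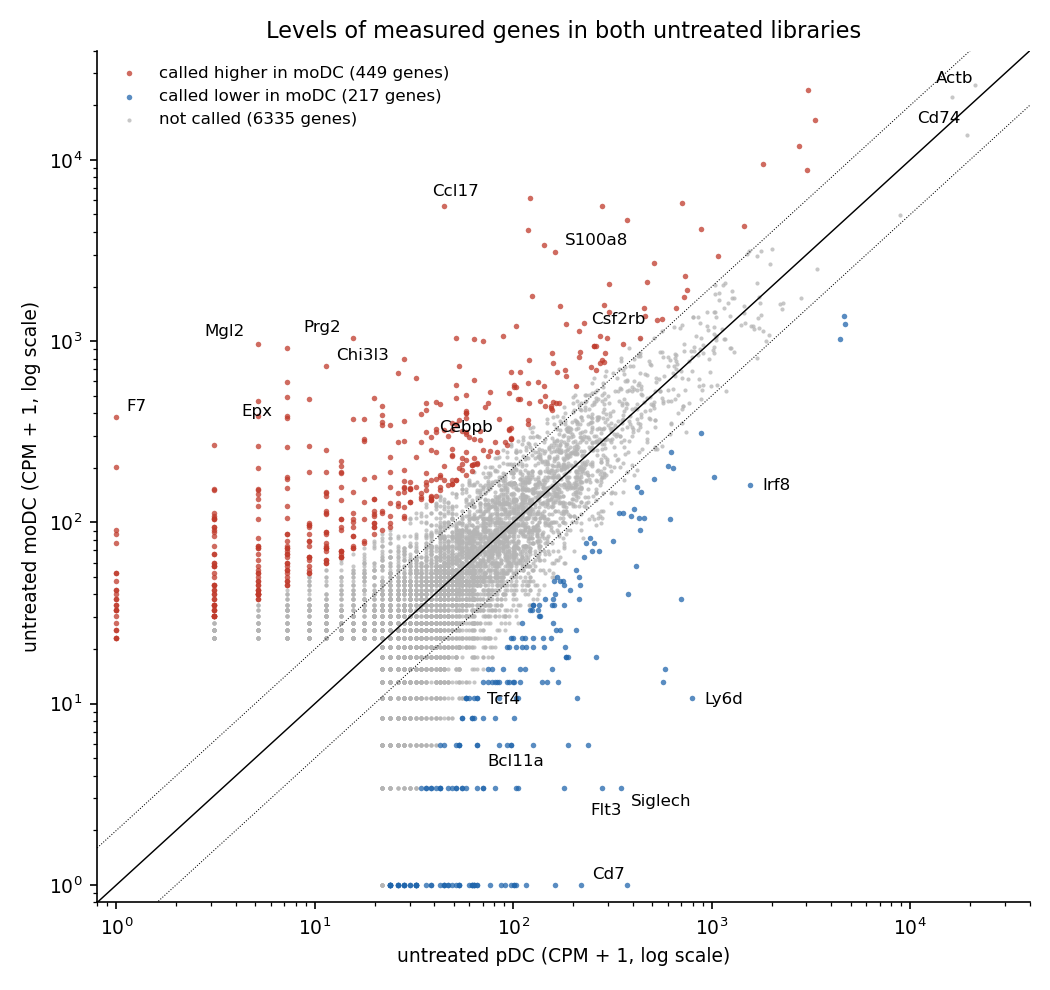
Levels of the 7001 measured genes in untreated moDC (vertical axis) and untreated pDC (horizontal axis), as CPM + 1 on log axes. The solid line marks equal levels and the dotted lines a fold of 2; the 449 genes called higher in moDC are red and the 217 called lower blue, with Ccl17 at 5540 CPM in moDC and 43.9 CPM in pDC and Irf8 at 159 CPM in moDC and 1560 CPM in pDC.

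Promoter sequences are shown for genes far apart at baseline whose proximal promoter holds a motif of the C/EBP or IRF family. The windows are the 250 bases before the annotated start in RefSeq (GRCm38.p6), printed 5′ to 3′ on the gene's strand. Capitals mark the C/EBP half-site pair TTGCNNAA, or its reverse complement, in the genes higher in moDC, and the IRF repeat GAAANNGAA in those lower. They are the 2 called genes per direction that hold the motif there, reach 100 CPM and differ most. 1600029D21Rik (Plet1) lies at chr9:50494275-50494524 and Cd200r4, an activating receptor of myeloid cells with 103 CPM in moDC and 2.09 CPM in pDC, at chr16:44820478-44820727. Ms4a6c lies at chr19:11469118-11469367 and Btla at chr16:45224087-45224336, and all 4 are on the + strand.
1600029D21Rik: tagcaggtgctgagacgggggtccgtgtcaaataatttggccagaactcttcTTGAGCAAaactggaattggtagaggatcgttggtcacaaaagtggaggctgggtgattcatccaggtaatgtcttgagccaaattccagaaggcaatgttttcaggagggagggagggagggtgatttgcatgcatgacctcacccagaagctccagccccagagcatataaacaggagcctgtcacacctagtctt
Cd200r4: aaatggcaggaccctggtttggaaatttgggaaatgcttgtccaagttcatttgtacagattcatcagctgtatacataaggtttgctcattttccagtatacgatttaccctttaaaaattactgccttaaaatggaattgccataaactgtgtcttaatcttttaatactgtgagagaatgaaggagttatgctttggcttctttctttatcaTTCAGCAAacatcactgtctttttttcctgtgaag
Ms4a6c: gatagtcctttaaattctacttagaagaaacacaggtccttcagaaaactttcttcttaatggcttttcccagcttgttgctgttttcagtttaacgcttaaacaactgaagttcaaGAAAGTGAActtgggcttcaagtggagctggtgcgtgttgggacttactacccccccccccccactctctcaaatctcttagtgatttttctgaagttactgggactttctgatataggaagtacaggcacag
Btla: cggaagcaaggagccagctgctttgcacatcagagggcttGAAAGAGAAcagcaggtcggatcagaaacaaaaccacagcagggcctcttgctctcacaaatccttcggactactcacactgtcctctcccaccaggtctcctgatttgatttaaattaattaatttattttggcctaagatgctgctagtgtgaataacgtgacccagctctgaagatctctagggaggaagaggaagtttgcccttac

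Over all promoters of the genes called, searched on both strands in RefSeq windows of 250 bases before to 50 after the start, the C/EBP pair was in 13.2% of 455 promoters of genes higher in moDC and 8.14% of 221 promoters of genes lower, against 8.79% of 7248 promoters of measured genes and 10.8% of 32851 promoters in all. The IRF repeat was in 11% and 10.9% of the promoters of higher and lower genes, against 6.94% of those of measured genes. The composite GGAANNGAA, bound by PU.1 with IRF4 or IRF8 and in part overlapping the IRF repeat, was in 12.3% of the promoters of higher genes and 7.24% of those of lower genes, against 7.74% of those of measured genes. The E-box CAGGTG was in 20.4% of the promoters of higher genes and 19.9% of those of lower genes, against 16.9%. The NF-kB core GGGANTTCC was in 1.98% of the promoters of higher genes and 0.905% of those of lower genes, against 2.52%. Of the genes called, 349 of 442 higher and 162 of 216 lower with a current symbol had a promoter in the table. The promoter windows of Cebpb and Irf8 themselves held neither the C/EBP pair nor the IRF repeat. These matches describe letters in a window and were not tested.

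Genes known to mark each cell type followed the labels in most cases. Of 41 measured pDC identity genes 22 were called lower in moDC and 0 higher, with a list median of -2.27, and for 16 of the 22 the 16 libraries of each type did not overlap. Over all measured genes such a gap with moDC above was found for 5.28% and with moDC below for 2.06%. Among called genes alone, the like set here, it was found for 261 of 449 higher and 86 of 217 lower. The endosomal receptor Tlr9 had 12.2 CPM in moDC and 79.4 CPM in pDC. The chemokine receptor Ccr9, which guides pDC to the gut, had 0 counts in moDC and 48 in pDC. Plac8, a cysteine-rich protein of pDC and monocytes, had 36.6 CPM in moDC and 700 CPM in pDC. Bst2, the antigen bound by pDC antibodies, had 313 CPM in moDC and 744 CPM in pDC (log2 ratio -1.25) and was not called. Ly6c2 went against the list with 78.1 CPM in moDC and 20.9 CPM in pDC, a marker that inflammatory monocytes share.

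Of 42 measured monocyte and macrophage genes 24 were called higher in moDC and 3 lower, with a median of 2.40, and 17 of the 24 did not overlap over the 16 libraries of each type. The lysozyme gene Lyz2 was among the highest of all genes in moDC, at 24400 CPM in moDC and 3060 CPM in pDC. The chemokine Ccl6 had 6170 CPM in moDC and 121 CPM in pDC, the scavenger receptor Marco 122 and 4.18 CPM, and the lectin Clec4n 3370 and 142 CPM. The 3 lower genes were Ms4a6c (4.88 CPM in moDC, 236 CPM in pDC), Ms4a4c (0 CPM in moDC, 161 CPM in pDC) and the lipoprotein gene Apoe (173 CPM in moDC, 510 CPM in pDC). Cx3cr1, the fractalkine receptor of patrolling monocytes, had 17.1 CPM in moDC and 77.3 CPM in pDC and was not called.

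Genes of conventional DC divided, with 7 of 33 called higher in moDC and 7 lower and a median of -0.76. With column totals the division was 5 higher and 10 lower. The higher genes held Mgl2, Ccl17, Ccl22 and the markers of mature DC Ccr7 (1060 CPM in moDC, 272 CPM in pDC) and Fscn1 (940 CPM in moDC, 261 CPM in pDC). The integrin Itgax, which encodes CD11c, had 715 CPM in moDC and 244 CPM in pDC. The lower genes held those of cross-presenting DC: Clec9a, a receptor for dead cells, had 0 counts in moDC and 30 counts (62.7 CPM) in pDC, and Wdfy4, a factor needed for cross-presentation, had 178 CPM in moDC and 1020 CPM in pDC. Xcr1, the chemokine receptor of the same cells, had 4.88 CPM in moDC and 33.4 CPM in pDC and was not called. In cells sorted from spleen, Clec9a had 228 CPM in pDC and 641 CPM in CD8+ DC, so it does not mark cross-presenting DC alone, and Wdfy4 had 94.9 CPM in pDC and 949 CPM in CD8+ DC. The share of such cells in the culture was not measured.

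The receptors for the ligands used later already differed at baseline. Of 35 measured genes of TLR and their adaptors 5 were called higher in moDC and 2 lower, with a median of 0.00, and column totals gave 3 higher and 4 lower. Tlr4, the LPS receptor, had 105 CPM in moDC and 6.27 CPM in pDC (43 and 3 counts), a ratio of 16.7 (interval 5.36 to 84.4). Its co-receptor Cd14 had 171 CPM in moDC and 37.6 CPM in pDC. Tlr2, a receptor of bacterial lipopeptides, had 244 CPM in moDC and 81.5 CPM in pDC, and its co-receptor Cd36 198 and 52.2 CPM. The kinase Ikbke had 112 CPM in moDC and 10.4 CPM in pDC. Tlr9, the CpG receptor, was lower in moDC as given above, and Tlr3, a receptor of double-stranded RNA, had 0 counts in moDC and 52.2 CPM in pDC. Tlr3 kept its sign in 10 of the 15 treated pairs. Tlr7, a receptor of single-stranded RNA, had 26.9 CPM in moDC and 46 CPM in pDC (log2 ratio -0.78, interval -1.97 to 0.33) and could not be told apart at this depth.

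Sensors of nucleic acids in the cytosol showed no call in either direction among 23 measured genes, with a median of 0.12. Over all measured genes 6.41% were called higher and 3.1% lower, so nothing is read from this count. Column totals called 1 of these sensors lower, and the results of pooled spread differed as well. The adaptor Pycard, which joins inflammasome sensors to caspases, had 701 CPM in moDC and 339 CPM in pDC.

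Several antigen presentation genes of MHC class II were called lower in moDC. Of 16 measured genes of MHC class II presentation 6 were called lower in moDC and 0 higher, with a median of -0.67. H2-Ab1, a class II chain, had 1020 CPM in moDC and 4400 CPM in pDC, H2-Aa 1240 and 4690 CPM, and H2-Eb1 1370 and 4650 CPM. Ciita, the transactivator of class II genes, had 112 CPM in moDC and 355 CPM in pDC. H2-Oa and H2-Ob, which form the modulator H2-O that limits peptide loading, had 24.4 and 14.6 CPM in moDC and 171 and 155 CPM in pDC. Cd74, the invariant chain, differed less, at 13700 CPM in moDC and 19300 CPM in pDC. Ifi30 and Ctss of this list went the other way, at 457 and 1130 CPM in moDC and 199 and 560 CPM in pDC, and were not called. In the control hairpin pair described below, of lower depth, 0 genes of this list were called in either direction. There H2-Aa had 50 counts in moDC and 51 in pDC. Of 21 measured class I genes 0 were called in either direction, close to the 6.41% higher and 3.1% lower of all measured genes, at a median of -0.21. The peptide transporter Tap1 had 146 CPM in moDC and 355 CPM in pDC. Under column totals 3 class I genes were called lower, so that nothing is read from the count.

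Lectins were called in both directions, and Fc, complement and lysosomal genes mostly toward moDC. Of 29 measured C-type lectins and scavenger receptors 11 were called higher in moDC and 5 lower, with a median of 0.32 (10 higher and 8 lower with column totals). Clec7a, the beta-glucan receptor, had 486 CPM in moDC and 50.2 CPM in pDC, the mannose receptor Mrc1 115 and 20.9 CPM, and Clec5a 249 and 10.4 CPM. The lower lectins included Klra17 (0 counts in moDC, 85.7 CPM in pDC) and Clec4a1 (12.2 CPM in moDC, 146 CPM in pDC). Of 18 measured Fc and complement genes 12 were called higher and 1 lower, with a median of 1.91. The activating Fc receptors Fcgr3 (996 CPM in moDC, 69 CPM in pDC) and Fcgr1 (132 CPM in moDC, 12.5 CPM in pDC) and complement C3 (794 CPM in moDC, 27.2 CPM in pDC) were among the higher genes. The exception was Fcgrt, the neonatal Fc receptor, with 29.3 CPM in moDC and 134 CPM in pDC.

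Of 23 measured lysosomal proteases and inhibitors 11 were called higher and 0 lower, with a median of 1.61 (7 higher and 1 lower with column totals). Cathepsin D, Ctsd, had 5750 CPM in moDC and 708 CPM in pDC, and cathepsin Z, Ctsz, 4160 and 880 CPM. Ctss, the protease that trims the invariant chain, had 1130 CPM in moDC and 560 CPM in pDC (log2 ratio 1.01) and was not called. Of 39 activating and inhibitory surface receptors 10 were called higher and 9 lower. Pilra, an inhibitory receptor of myeloid cells, had 457 CPM in moDC and 35.5 CPM in pDC, and Cd300lf 674 and 96.1 CPM, while its relative Cd300c had 0 counts in moDC and 49 counts in pDC.

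Chemokine genes were higher in moDC before any ligand. Of 15 measured chemokines 14 were called higher in moDC and 0 lower, with a median of 3.75 beside 0.04 for all measured genes, and 10 were called by edgeR with pooled spread. Ccl22, like Ccl17 a ligand of CCR4, had 5530 CPM in moDC and 278 CPM in pDC. Ccl9, a ligand of CCR1, had 1560 CPM in moDC and 171 CPM in pDC. The monocyte attractant Ccl2 had 178 CPM in moDC and 6.27 CPM in pDC, and the neutrophil attractants Cxcl3 and Cxcl2 had 437 and 347 CPM in moDC and 20.9 and 50.2 CPM in pDC. Ccl5 had 2130 CPM in moDC and 472 CPM in pDC.

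For 5 of the 14 chemokines, Ccl17, Ppbp, Ccl6, Ccl2 and Pf4, the 16 libraries of each type did not overlap, while Ppbp and Pf4 were lower in moDC in the control hairpin pair. Of 27 measured chemokine receptors and homing genes 8 were higher and 5 lower (8 and 10 with column totals). The formyl peptide receptors Fpr1 and Fpr2, which sense bacterial peptides, had 122 and 259 CPM in moDC and 6.27 CPM each in pDC. The lower genes included Ccr9 and the integrin chain Itgb7 (39.1 CPM in moDC and 376 CPM in pDC).

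Inflammatory mediators were higher in moDC at baseline for 12 of 22 measured genes and lower for 0, with a median of 1.88 (8 higher with column totals, and 7 by edgeR with pooled spread). Alox5, which makes leukotrienes, had 105 CPM in moDC and 2.09 CPM in pDC. Il1rn, the antagonist of the IL-1 receptor, had 369 CPM in moDC and 14.6 CPM in pDC, while Il1b itself had 276 CPM in moDC and 89.9 CPM in pDC. Tnf, with 227 CPM in moDC and 91.9 CPM in pDC, was not called. Of 25 genes of costimulation and maturation 11 were called higher and 0 lower, with a median of 1.49, among them Tnfrsf9, a costimulatory receptor (198 CPM in moDC, 4.18 CPM in pDC), the inhibitory ligands Pdcd1lg2 (56.2 CPM in moDC, 2.09 CPM in pDC) and Cd274 (134 CPM in moDC, 18.8 CPM in pDC), and Socs2, a feedback inhibitor of cytokine receptors (359 CPM in moDC, 20.9 CPM in pDC). Of these 11, 6 kept their sign in all 15 treated pairs.

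Genes of alternative macrophage activation showed 18 of 24 called higher and 0 lower, with a median of 3.74. Among the members this list shares with other lists are Mgl2, Ccl17, Ccl22, Chi3l3, Egr2, Fn1, Mrc1, Il1rn, Socs2 and Pdcd1lg2. Mmp12, the macrophage elastase, had 4110 CPM in moDC and 117 CPM in pDC. Tm7sf4 (now Dcstamp), a membrane protein of cell fusion, had 134 CPM in moDC and 4.18 CPM in pDC. Retnla, a resistin-like protein, had 31.7 CPM in moDC and 2.09 CPM in pDC, on 13 counts in moDC and 1 count in pDC. The ribonuclease genes Ear2 and Ear3 had 286 and 281 CPM in moDC and 16.7 CPM each in pDC, but they have near-identical copies that could share reads.

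Interferon genes were almost silent in both. The 20 type I and III interferon genes in the table summed to 9.77 CPM in moDC and 20.9 CPM in pDC, and none reached 20 CPM. Of 43 measured interferon-stimulated genes 5 were called higher in moDC and 1 lower, with a median of 0.05, near that of all genes. Irf7, the factor that amplifies interferon in pDC, had 22 CPM in moDC and 69 CPM in pDC (log2 ratio -1.65, interval -2.90 to -0.55) and was not called. The higher genes were Oas1a, Gbp6, Slfn1, Mx1 (146 CPM in moDC, 27.2 CPM in pDC) and Slfn2 (1450 CPM in moDC, 301 CPM in pDC), and the lower gene was Ly6a. The sign of Mx1 and Slfn2 held in 8 of 15 treated pairs each, and the Slfn genes are close relatives that could share reads.

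The secretory apparatus, which pDC use for interferon, showed calls near the share of all measured genes. Of 41 measured genes of the secretory pathway and the unfolded protein response 0 were called higher and 1 lower, the stress sensor Atf6, with 26.9 CPM in moDC and 109 CPM in pDC. Xbp1, which drives secretory capacity, had 203 CPM in moDC and 98.2 CPM in pDC (log2 ratio 1.04) and was not called. Of 20 genes of cholesterol and lipid synthesis 1 (5%) was called higher, near the 6.41% of all measured genes. It was Mvd of the mevalonate pathway (161 CPM in moDC, 48.1 CPM in pDC).

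Metabolic genes that were called were mostly higher in moDC, for handling of lipids, sugar and iron. Of 23 measured lipid handling genes 10 were called higher and 1, Apoe, lower (6 and 2 with column totals). Lpl, which frees fatty acids from lipoproteins, had 1210 CPM in moDC and 102 CPM in pDC, and the fatty acid binding protein Fabp5 278 and 25.1 CPM. Of 21 glycolysis and hypoxia genes 7 were called higher and 0 lower (5 and 0 with column totals), with a median of 1.27. All 7 were without overlap over the 16 libraries of each type. The glucose transporter Slc2a1 had 320 CPM in moDC and 66.9 CPM in pDC, and the lactate exporter Slc16a3 227 and 23 CPM. Slc2a3 and Hk2 had log2 ratios of -1.82 and -1.83 and were not called.

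Of 23 genes of the oxidative burst and iron 13 were called higher and 1 lower, with a median of 1.45 (9 and 2 with column totals). The ferritin chains Fth1 and Ftl1, which store iron, had 16500 and 12000 CPM in moDC and 3310 and 2760 CPM in pDC. Tfrc, the transferrin receptor that imports iron, was the 1 lower gene, with 12.2 CPM in moDC and 91.9 CPM in pDC. Of 26 matrix genes and enzymes 14 were higher and 4 lower, with the collagenase Mmp8 at 1040 CPM in moDC and 50.2 CPM in pDC. Of 39 cell cycle genes 2 were higher and 1 lower, no more than the 6.41% and 3.1% of all measured genes. The inhibitor Cdkn1a (430 CPM in moDC, 71 CPM in pDC) and cyclin Ccnd2 (557 CPM in moDC, 102 CPM in pDC) were higher, and cyclin Ccnd1 (103 CPM in moDC, 614 CPM in pDC) was lower. Ccnd2 kept its sign in 11 of 15 treated pairs, was not called by edgeR with pooled spread (adjusted p = 0.0726) and had 25 counts in moDC and 29 in pDC with a control hairpin. Of 13 measured reference genes 0 were called, a list too short to set against those shares, with Actb at 22200 CPM in moDC and 16300 CPM in pDC.

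**Figure D3:**
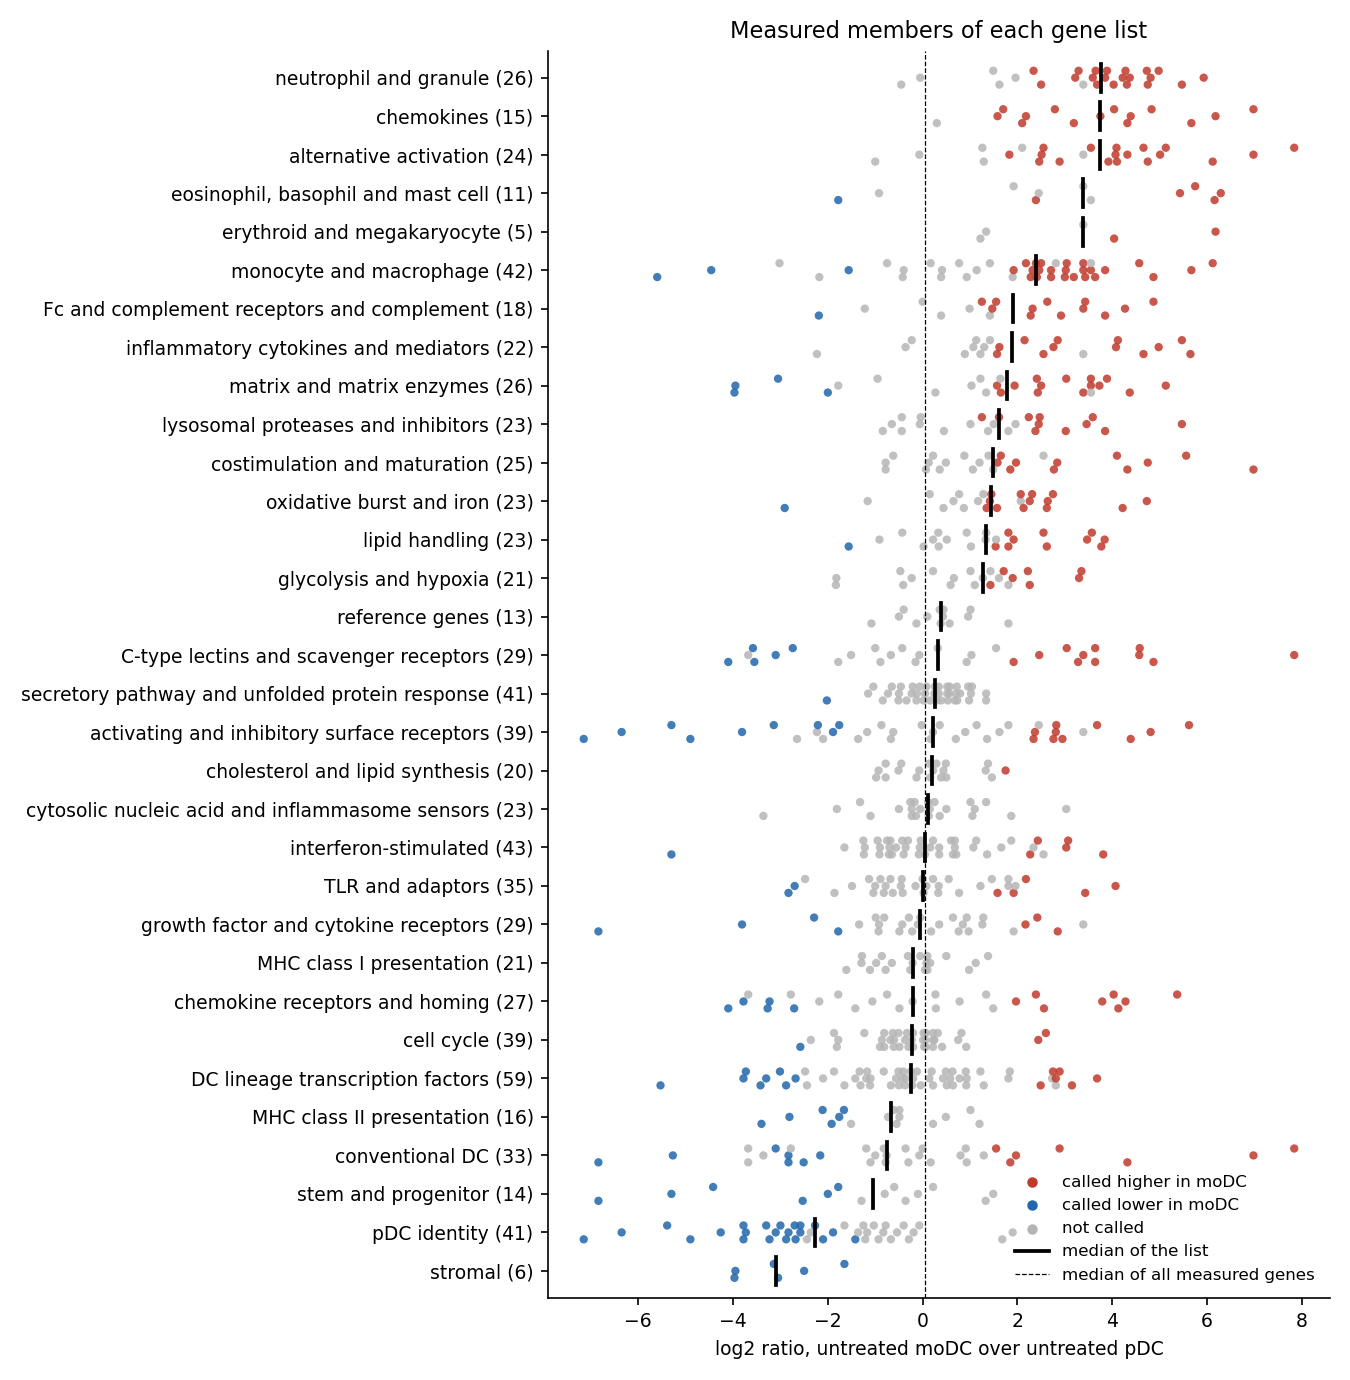
Log2 ratio of untreated moDC over untreated pDC for each measured member of the gene lists with at least 5 measured members (number in brackets), ordered by median. Points are genes (red called higher in moDC, blue called lower, grey not called), black bars list medians and the dashed line the median of all measured genes (0.04); medians ran from -3.10 (stromal) to 3.77 (neutrophil and granule). The stromal genes shown reached 20 CPM in pDC alone, which set their direction.

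Markers of other cell types moved with the groups. Of 26 measured neutrophil and granule genes 20 were called higher in moDC and 0 lower, with a median of 3.77, and 18 of the 20 did not overlap over the 16 libraries of each type. The list of 30 genes in the table summed to 12800 CPM in moDC and 1620 CPM in pDC, and 0 of them were at 0 counts in moDC and 5 in pDC. The alarmin chains S100a8 and S100a9 had 3120 and 4670 CPM in moDC and 161 and 372 CPM in pDC, lactoferrin (Ltf) 388 CPM in moDC and 20.9 CPM in pDC, and Camp, an antimicrobial peptide, 264 CPM in moDC and 8.36 CPM in pDC. Elane went against the list with 535 CPM in moDC and 731 CPM in pDC (log2 ratio -0.45) and was not called. It was below its pDC partner in all 15 treated pairs, without overlap of the 16 libraries of each type. Among the sorted cells described below, Elane had 722 CPM in splenic pDC and 693 CPM in Ly6c+ monocytes. Whether its counts follow granule content was not tested. Mpo, the myeloperoxidase of early granules, had 29.3 CPM in moDC and 10.4 CPM in pDC and was not called. The part of these cells in the inflammatory, chemokine, iron and matrix genes above was not tested.

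Of 11 measured eosinophil, basophil and mast cell genes 5 were called higher and 1, Kit, lower, and the list of 31 genes summed to 2100 CPM in moDC and 274 CPM in pDC. Beside Epx and Prg2 the higher genes were Ear1, Ear6 and Prss34, and 10 of the list were at 0 counts in moDC and 4 in pDC. Epx, Prg2, Ear1 and Ear6 reached 20 CPM in moDC alone and Kit in pDC alone, so that minimum level set their direction. The platelet genes Ppbp and Pf4 were the 2 genes called among 5 of the erythroid and megakaryocyte list, which summed to 1290 CPM in moDC and 119 CPM in pDC. Pf4 alone had 1030 CPM in moDC and 62.7 CPM in pDC, and Ppbp reached 20 CPM in moDC alone. Both went the other way with a control hairpin, where Ppbp had 3 counts in moDC and 16 in pDC, and Pf4 22 and 37.

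Toward pDC, all 6 measured stromal genes were called lower in moDC, with a median of -3.10. All 6 reached 20 CPM in pDC alone, so the direction of these differences, though not their size, was set by that minimum level. Sparc, a matrix protein, had 0 counts in moDC and 55 counts (115 CPM) in pDC, at least 15.7-fold lower in moDC, and the collagen genes Col1a1 and Col1a2 had 0 and 2.44 CPM in moDC and 60.6 and 37.6 CPM in pDC. The stromal list summed to 24.4 CPM in moDC and 422 CPM in pDC, with 15 of 19 genes at 0 in moDC and 2 in pDC. Stray counts moved the same way: 1046 of 1108 olfactory receptor genes were at 0 in moDC and 652 in pDC, and 11854 genes were detected in moDC and 16202 in pDC. The part of these stray counts in the tallies of genes at 0 was not tested. Of 14 stem and progenitor genes 6 were lower, among them Cd34 (9.77 CPM in moDC, 209 CPM in pDC), the transcription factor Myb (9.77 CPM in moDC, 56.4 CPM in pDC) and Kit (0 CPM in moDC, 25.1 CPM in pDC). These 6 lower genes reached 20 CPM in pDC alone, so their direction too was set by the minimum level. Notch1, Mpo and Egfl7 of this list went the other way, at 68.4, 29.3 and 46.4 CPM in moDC and 27.2, 10.4 and 39.7 CPM in pDC. They were not called, and each kept its sign in 14 of 15 treated pairs. Flt3, Kit and Ly6a of this list are also in other lists.

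B cell genes summed to 22 CPM in moDC and 263 CPM in pDC, with Cd79b at 7.32 CPM in moDC and 60.6 CPM in pDC and Cd22 at 0 CPM in moDC and 64.8 CPM in pDC, and 17 of 22 genes at 0 in moDC and 3 in pDC. T cell genes summed to 43.9 CPM in moDC and 102 CPM in pDC, and Cd5 was the 1 gene of 20 that reached 20 CPM. NK cell genes summed to 34.2 CPM in moDC and 295 CPM in pDC, and the measured ones were Klrd1 and Klrk1, both lower in moDC. The measured B, T and NK cell genes reached 20 CPM in pDC alone, so their direction was set by that minimum level. The part of such cells in the genes lower in moDC was not tested.

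The baseline difference extended to the treated pairs for most genes. Of the 449 genes higher in moDC 372 kept the sign in all 15 pairs, and of the 217 lower genes 143 did. Over all measured genes 11.4% were above in all 16 pairs and 6.44% below. No overlap between the 16 libraries of each type was seen for 261 of the higher and 86 of the lower genes. The treated pairs share no library with the untreated pair, but the count without overlap includes the untreated libraries that made the calls.

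A small group did not hold. Of the called genes 6 higher and 1 lower had the opposite sign in 8 or more of the 15 pairs. Most of these calls were near the threshold, since 2 of the 7 were also called with column totals and 2 by edgeR with pooled spread. Traf1, Icam1 and Cxcl16, with lower limits of 1.08, 1.12 and 1.08 on the log2 scale, lost the call under both, and their edgeR adjusted p was 0.204, 0.0991 and 0.11. Traf1, a signalling adaptor of TNF receptors, had 230 CPM in untreated moDC and 73.1 CPM in untreated pDC, and the opposite sign in 11 pairs. Its moDC level was 1250 CPM and its pDC level 2270 CPM after 6 h of LPS, and 328 CPM in moDC and 1550 CPM in pDC after 6 h of CpG A. Icam1, an adhesion molecule that activated DC carry, had 349 CPM in untreated moDC and 117 CPM in untreated pDC, and the opposite sign in 8 pairs. The scavenger chemokine Cxcl16 had 288 CPM in untreated moDC and 96.1 CPM in untreated pDC, and the opposite sign in 8 pairs. Psd, which encodes an exchange factor for Arf6, had 103 CPM in moDC and 14.6 CPM in pDC untreated, and the opposite sign in 10 pairs.

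Treated pDC reached 2590 CPM of Traf1 with CpG B at 4 h, and treated moDC at most 1420 CPM, with LPS at 4 h. Among the genes lower in moDC, the helicase gene Dna2 was turned most often, with 9.77 CPM in moDC and 64.8 CPM in pDC untreated and the opposite sign in 8 pairs, on 0 to 10 counts in treated moDC. Cebpb kept log2 ratios between 2.52 and 4.17 over the 15 pairs (0.5 counts added). Irf8 approached equality, with a log2 ratio of -0.10 after 6 h of CpG B, where moDC had 678 CPM and pDC 726 CPM, and -2.43 after 6 h of CpG A. These are single libraries, and the differences between pairs were not tested.

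**Figure D4:**
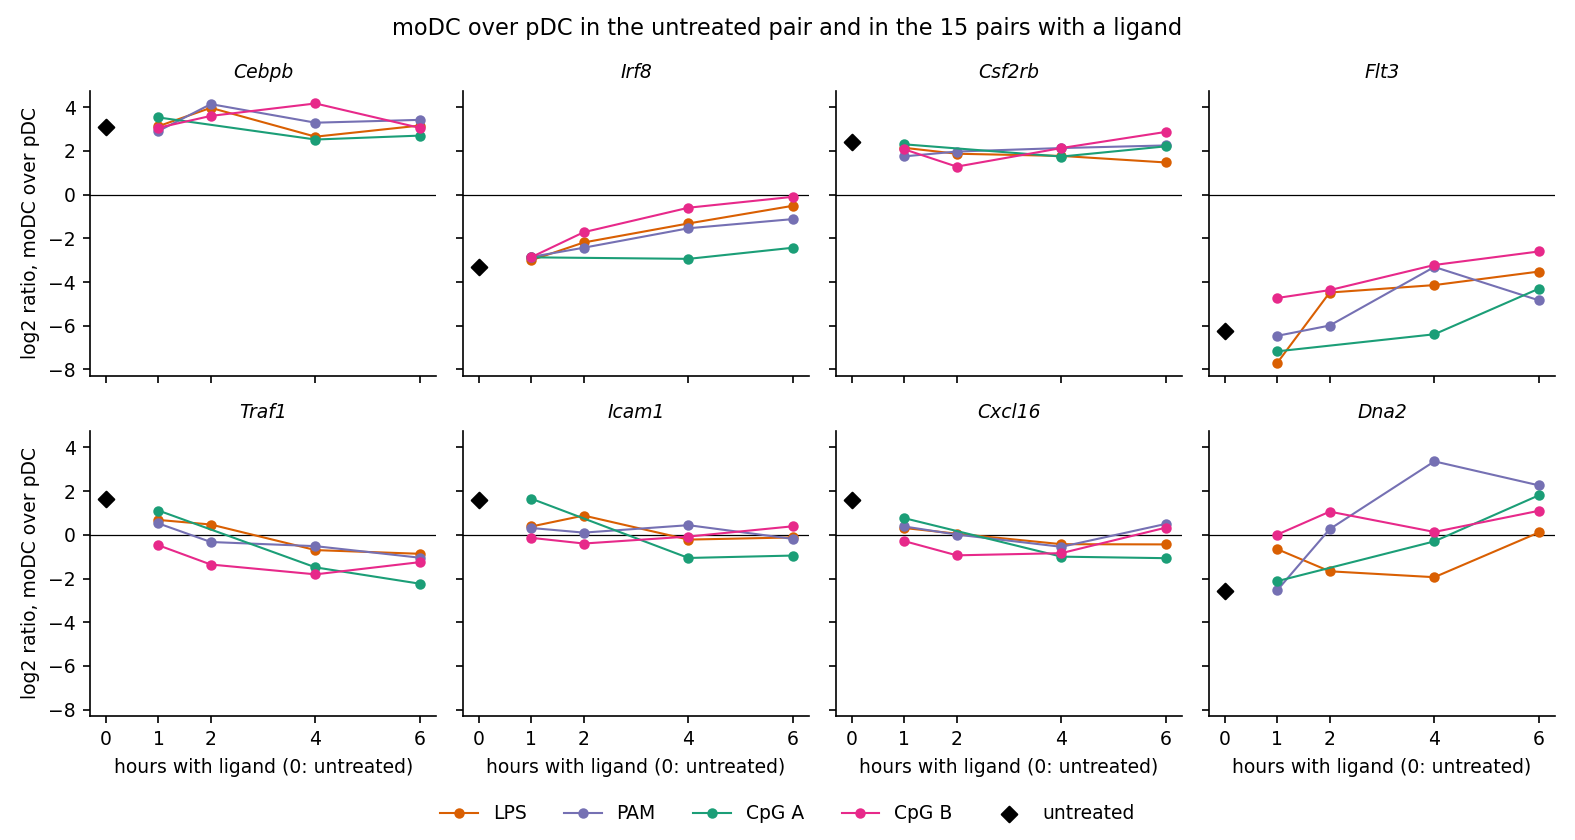
Log2 ratio of moDC over pDC (0.5 counts added) in the untreated pair (diamond, drawn at 0 h) and in the 15 pairs with a ligand, by hours of treatment and coloured by ligand. Cebpb and Csf2rb stayed above 0 and Irf8 and Flt3 below it in each pair, whereas Traf1 lay below 0 in 11 pairs and Icam1 and Cxcl16 in 8 each, and Dna2 lay above 0 in 9 with the added count.

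Other libraries of the series gave levels that can be set beside the baseline, each scaled within its own table by column totals. In moDC and pDC with a control hairpin, of 41418 and 39739 counts, 330 of the 426 higher genes with a count were above in moDC and 159 of the 183 lower genes below, against 38.5% above and 61.5% below over all measured genes with a count. The deposited table names the moDC column of this pair cDC, while the sample's label says moDC from GM-CSF, and it was matched by its hairpin. Cebpb had 23 counts in moDC and 8 in pDC there (555 and 201 CPM), and Irf8 had 8 counts in moDC and 32 in pDC (193 and 805 CPM). H2-Ab1 went against the untreated pair, with 24 counts in moDC and 14 in pDC, as did Hmox1, which degrades haem, with 9 counts in moDC and 57 in pDC.

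In cells sorted from mice, 51.1% of 399 higher genes were more than 2-fold above in Ly6c+ monocytes of bone marrow relative to splenic pDC, and 26.1% more than 2-fold below. For 211 lower genes these shares were 15.2% above and 61.1% below, and for 6868 measured genes 17.3% above and 23.3% below. Of 9 sorted populations, Ly6c+ monocytes held the highest level of 28.2% of the genes higher in moDC, against 10.9% of all measured genes, and splenic pDC held the highest level of 30.2% of the genes lower in moDC, against 11.8%.

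Single genes showed where the cultures and the sorted cells differed. Cebpb had 588 CPM in sorted Ly6c+ monocytes and 28 CPM in sorted pDC, and Irf8 406 and 3520 CPM. Siglech and Ly6d had 17.2 and 11.4 CPM in sorted Ly6c+ monocytes and 2650 and 1900 CPM in sorted pDC. Chi3l3 had 2290 CPM in sorted Ly6c+ monocytes and 1.75 CPM in sorted pDC. Ccl17 and Clec4n, 2 of the most abundant genes of the moDC culture, were at 0 CPM in sorted Ly6c+ monocytes, and at 0 and 2.92 CPM in sorted pDC. Ms4a6c, lower in the moDC culture, had 564 CPM in sorted Ly6c+ monocytes and 37.9 CPM in sorted pDC. Dmpk, at 374 CPM in the untreated pDC culture, had 0 CPM in sorted Ly6c+ monocytes and 1.75 CPM in sorted pDC. No test compared levels across tables, and the tables were normalized separately.

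**Figure D5:**
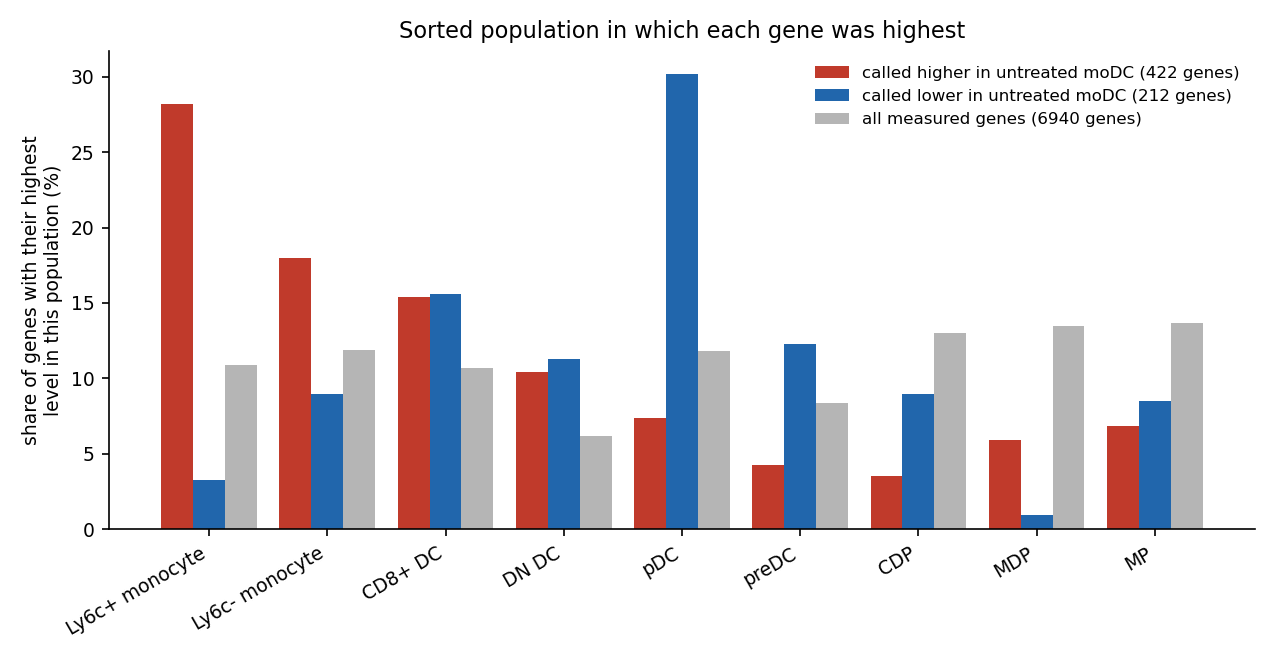
Share of genes (%) whose highest level among 9 sorted populations was in the population named below, for genes called higher in untreated moDC (red, 422 genes), called lower (blue, 212 genes) and all measured genes (grey, 6940 genes). Ly6c+ monocytes held the highest level of 28.2% of the higher genes, and pDC of 30.2% of the lower genes.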

How the data were processed

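Counts of 3′ end reads per gene symbol, whole numbers as deposited by the authors, were used for the 32 libraries of the stimulation table (255062 to 748152 counts). The other 2 tables hold estimated counts, as deposited by the authors, of which 10.2% and 15.8% are not whole, and were rounded. The submitters' processing notes name TopHat and mm9; the counting tool and its handling of multiple hits are not stated there. A row without a gene name (0.889% of counts in moDC, 0.383% in pDC) was left out, and 1 column of the sorted populations matched no sample by name and was not used. TMM factors over the 32 libraries (edgeR 4.0.16, R 4.3.3) were 1.02 for moDC and 1.27 for pDC. Intervals used scipy 1.17.1. A gene with 0 counts in 1 library entered ratios and medians at 3 counts, as a bound. edgeR and DESeq2 1.42.0 with spread pooled over 18 groups by cell type, ligand and early or late times (14 residual degrees of freedom, biological coefficient of variation 0.201) and other scalings, filters and call rules were alternatives. Libraries of neighbouring times stood in for replicates, so this coefficient holds change between times. Scripts were tested on simulated data. Promoters came from RefSeq (GRCm38.p6), and 21401 symbols matched its gene table. The members and gene lists were chosen with earlier results of these data known. Named genes are the 15 largest ratios per direction among called genes of at least 100 CPM, Cebpb and Irf8, up to 6 members per list and direction, and genes turned in most treated pairs; Spib, Tcf4, Irf4, Id2, Cebpa, Tlr2, Tlr7, Csf1r, Ctss, Xbp1, Bst2, Tnf, Mpo, Cd74 and further list members were added after their values were seen.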

Additional observations from a re-analysis of the deposited data

How the results depend on the processing

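The number of genes called changed with the call rule, the minimum level, the scaling and the pair of libraries, and was the same with no filter. A point ratio of at least 2 gave 1258 higher and 1096 lower, an interval beyond a fold of 4 gave 168 and 68, and a minimum of 100 CPM gave 287 and 104 with a median log2 ratio of 0.27. Column totals gave 371 lower (318 higher) with a median of -0.33, and the total of measured genes 396 lower (307 higher) with a median of -0.35. Requiring the sign of all 15 treated pairs left 143 lower (372 higher). The control hairpin pair, at the lower depth of 41418 and 39739 counts, gave 63 higher and 31 lower, a median of -0.27, Cebpb at 1.46 and Irf8 at -2.06. Signs turned there for Ptx3 (-0.38), Cd36 (-0.30), Pf4 (-0.81), Hmox1 (-2.72), Pla2g15 (-0.80), Ppbp (-2.47), Fn1 (-1.16), Ccnd2 (-0.27), Treml2 (-2.38) and H2-Ab1 (0.72), and the cause was not tested. edgeR with pooled spread called 568 higher and 294 lower, of which 412 and 203 were among the calls given, and DESeq2 called 324 and 155. Of the 7 genes opposite in at least 8 treated pairs, DESeq2 called 1. Subtracting the olfactory receptor background gave 531 and 202. In the hairpin pair 55 of the higher and 13 of the lower calls were shared, and 1 called gene was called in the other direction. The other alternatives reused the counts of the same untreated libraries and could hardly turn a call. Nothing is read from the absence of turned calls under them. No replicate could be left out, with 1 library a group. No paired analysis was possible because each group is 1 library. Depth limits genes below about 20 CPM, where a call needs 0 or few counts in the other library.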
